A study of Mus musculus with 21 samples.

Results

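The C/EBP palindrome ttgcgcaa and its single-mismatch neighbours were followed across 21 protein binding microarrays. The rule took the palindrome and all 24 8-mers that differ from it at 1 base, and set aside ttAcgcaa and ttgcgTaa because they are also 1 mismatch from the PAR palindrome ttacgtaa. This left 23 of the 65535 8-mers in the deposited matrix, the palindrome and 22 mismatch 8-mers, which form 11 reverse-complement pairs. All 23 were carried by probes, with 14 to 20 probes each and 17 for the palindrome, and none was lost to a filter. The measured value was the deposited Z-score of each 8-mer, a score within an array whose median over all 8-mers lies near 0, so that a high value stands for strong binding signal.

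The arrays were incubated with GST fusions of mouse bZIP DNA-binding domains, made in a cell-free system, so that no full-length protein and no partner protein was present. Mutant and wild-type domains were CEBPB(V285A), CREB1(A297V), CEBPB and CREB1. Each array's DNA was made double-stranded with 5-methylcytosine (5mC), 5-hydroxymethylcytosine (5hmC) or cytosine (C), which placed the modified base on 1 strand alone. CEBPB(V285A) had 2 arrays each on 5mC, 5hmC and C. CREB1(A297V) had 2 on 5mC, 4 on 5hmC and 2 on C, CEBPB had 2 on 5hmC, and CREB1 had 1 on 5mC, 2 on 5hmC and 2 on C. CEBPB on 5mC and on C was not analysed here. The labels do not say whether replicates came from separate protein preparations, so p-values measure the spread between these arrays, which may be technical.

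Members of the bZIP family bind DNA as dimers, and the basic region of each subunit reads 1 half-site in the major groove. C/EBP proteins, known for roles in fat, liver and myeloid cells, prefer a palindrome of GCAA half-sites around a central CpG, whereas CREB proteins, which respond to cyclic AMP, prefer the cAMP response element with its GTCA half-sites. The mutations exchange valine and alanine between the 2 proteins at a position of the basic region that lies against the DNA. 5mC carries a methyl group that projects into the major groove, and 5hmC is its oxidised form, made by TET enzymes.

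The 8-mers on which the results turn are given below 5′ to 3′ as the synthesised strand, the strand that carries the modified base, with the mismatched base in capitals. Positions are counted from 1 at the 5′ end, and each pair of mismatches is 1 site read from its 2 strands, so that the first of a pair keeps cgcaa or gcaa on the modified strand and the second keeps it on the unmodified strand. They are shown because they had the largest changes or the largest differences between strands.
palindrome: ttgcgcaa
T1C: Ctgcgcaa
A8G, its reverse complement: ttgcgcaG
T2G: tGgcgcaa
A7C, its reverse complement: ttgcgcCa
G3C: ttCcgcaa
C6G, its reverse complement: ttgcgGaa
G3T: ttTcgcaa
C6A, its reverse complement: ttgcgAaa
C4T: ttgTgcaa
G5A, its reverse complement: ttgcAcaa
C4A: ttgAgcaa
G5T, its reverse complement: ttgcTcaa

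The palindrome itself has 2 cytosines on either strand and 1 CpG. Of the 22 mismatch 8-mers, 16 keep the CpG and 6, those mismatched at position 4 or 5, lose it. The 23 members lay on 395 probes of 35 bases, and 2 of these probes carried more than 1 member. The strand was assigned by matching the deposited 8-mer names to the probe signals. The names read the printed probe sequence backwards, with correlations of 0.603 to 0.986 between the Z-score and the median probe signal over all 8-mers on each array. The printed oligo was taken to be the template of the synthesised strand, which was not tested. If the printed oligo were instead the modified strand, each 8-mer given here would read as its reverse complement, and the sides and strands in the results would change places.

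The palindrome stood near the top of all 8-mers for CEBPB(V285A) on every cytosine form and for CEBPB on 5hmC. With CEBPB(V285A) it had Z-scores of 200.2 and 215.3 on 5mC, where it was the 4th highest 8-mer on both arrays. The values were 76.9 and 57.7 on 5hmC (ranks 7 and 8) and 65.7 and 65.3 on C (ranks 36 and 16). The 5mC arrays were therefore well above the others, and the 5hmC arrays lay on both sides of the C arrays.

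CEBPB on 5hmC gave the palindrome Z-scores of 34.4 and 35.9, again the 4th highest 8-mer on both arrays. These values were below both of those for CEBPB(V285A) on 5hmC. The ranks of the CEBPB and CEBPB(V285A) palindrome were nevertheless alike. The highest Z-score on the array was 50.1 and 69.0 for CEBPB, against 227.7 and 125.3 for CEBPB(V285A).

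CREB1, whose own preferred site is the cAMP response element, gave the palindrome little signal on C and more on both modified forms. Its Z-score was 14.0 on the single 5mC array (rank 86), 8.85 and 10.4 on 5hmC (ranks 286 and 263), and 1.90 and 2.06 on C (ranks 5758 and 4840). All 3 arrays with a modified cytosine were above both C arrays.

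CREB1(A297V) had the lowest mean palindrome Z-score on each cytosine form, although on C its arrays overlapped those of CREB1. The values were 3.19 and 5.13 on 5mC (ranks 917 and 368) and 1.47 and 1.92 on C (ranks 7774 and 3626), so the 5mC arrays were the higher ones. On 5hmC the 4 arrays gave 2.93, 1.40, 1.41 and 6.73, which overlapped the C arrays. The third of them was a dim array, with a median probe intensity of 76 against a local background of 68, and its palindrome probes had a median of 81.5. On the second, the median probe intensity of 1673 was below the local background of 1743, and its palindrome probes had a median of 1853. For comparison, the palindrome probes had a median intensity of 31217 and 30204 on the CEBPB(V285A) 5mC arrays, where all probes had a median of 981 and 922. At most 3 of the 17 palindrome probes reached an intensity of 65000, near the top of the scanner's range, on any array.

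Most single mismatches had far lower Z-scores than the palindrome where the palindrome was high, with exceptions for CEBPB, whose ttgcAcaa and ttgcgAaa averaged 22.6 and 21.3 on 5hmC against 35.2 for the palindrome. On 17 of the 21 arrays none of the 22 mismatch 8-mers exceeded the palindrome, and the other 4 were all among the 8 CREB1(A297V) arrays. Here and below, the 2 8-mers set aside are left out of counts and rankings of mismatches, but not of the medians over 24 8-mers. Of these 2, ttAcgcaa averaged above the palindrome in every group except CEBPB on 5hmC. In that group it averaged 22.9, and ttgcgTaa averaged 35.7. By the number of mismatches, the median Z-score for CEBPB(V285A) on 5mC was 207.7 for the palindrome, 12.7 over the 24 8-mers with 1 mismatch and 0.985 over the 251 with 2. The same protein on C had 65.5, 2.24 and 0.283. CEBPB on 5hmC had 35.2, 1.78 and 0.518. The median 8-mer with 1 changed base thus kept a small share of the palindrome's Z-score in each of these groups.

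The level also differed with the position of the mismatch. For CEBPB(V285A) on 5mC, the 8 mismatches at positions 1 to 3 had a median of 20.7 (9.02 to 94.4), the 3 at position 4 a median of 28.9 (7.55 to 53.0), the 3 at position 5 a median of 1.39 (0.185 to 34.9) and the 8 at positions 6 to 8 a median of 5.36 (0.788 to 23.6). On C the same protein had medians of 2.98, 2.01, -0.176 and 1.86 in these classes, so that the left and right sides of the site were closer together. For CREB1 on 5mC the medians were 6.74, 0.891, -0.854 and 0.849, and the 8 members at positions 1 to 3 all lay above the highest of the 8 at positions 6 to 8 (3.93 to 9.80 against -0.599 to 3.32).

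CEBPB on 5hmC showed no such lean to the left. Its medians were 1.15 at positions 1 to 3, 2.22 at position 4, 5.83 at position 5 and 1.47 at positions 6 to 8, where the highest value was 21.3. The highest mismatch on both CEBPB arrays was ttgcAcaa (19.3 and 25.8), which was also the highest on both CEBPB(V285A) C arrays (6.94 and 6.60). On the CEBPB(V285A) 5hmC arrays it was ttgTgcaa, the same site read from the other strand. For CREB1 the highest mismatch was Ctgcgcaa on 5mC, ttTcgcaa on both 5hmC arrays and Atgcgcaa on both C arrays.

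How many of the 23 members reached the top 1% of all 8-mers (the top 655) differed between groups. There were 15 and 14 on the CEBPB(V285A) 5mC arrays, 5 and 4 on its 5hmC arrays and 1 on each of its C arrays. CEBPB on 5hmC had 6 and 5. CREB1 had 7 on 5mC, 1 and 2 on 5hmC and 0 on both C arrays. CREB1(A297V) had 1 and 2 on 5mC, 0 on 3 of its 5hmC arrays and 3 on the other one, and 0 on C.

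Differences between groups were tested with limma on the Z-scores of all 65126 8-mers that had a probe, with 21 arrays in 1 fit, and an 8-mer was called at a Benjamini-Hochberg adjusted p under 0.05. Most arrays of a group carry the same number in their deposited name, and what that number stands for is not stated. Those of CREB1 on 5mC and C and of CREB1(A297V) on 5mC and C share 1 number, as do those of CEBPB and CREB1 on 5hmC. The 4 CREB1(A297V) arrays on 5hmC carry 3 numbers. Replicates 1 and 2 have that of CREB1(A297V) on C, and replicate 4 has that of CEBPB(V285A) on 5hmC. CEBPB(V285A) has a different number on each cytosine form, so a difference between these sets of arrays and an effect of the cytosine form cannot be told apart for that protein. It shares no number with CEBPB or CREB1, and the CREB1 5hmC arrays share none with CREB1 on C or with CREB1(A297V), so the same holds for those comparisons. In no comparison of 2 groups did their arrays overlap at a called member. With so few arrays a call and such a gap largely go together, so this is no separate evidence. The share among all called 8-mers is not given here.

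On 5mC, CEBPB(V285A) gave higher Z-scores than on C at 18 of the 23 members and lower ones at 0, where 6.57% of all 8-mers were called in either direction. The median difference over the members was 10.6. The palindrome rose by 142.3 (207.7 ± 10.7 on 5mC against 65.5 ± 0.249 on C, SD, n = 2 each, adjusted p = 1.4e-08). After quantile normalization between arrays its difference was 45.2 and was not called (adjusted p = 0.15).

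The largest rise among the mismatches was at Ctgcgcaa, whose Z-scores were 90.3 and 98.6 on 5mC against 2.55 and 2.00 on C. The difference was 92.2 (adjusted p = 9.4e-16). This T1C mismatch gives the synthesised strand 1 more modifiable cytosine than the palindrome has. It was the highest mismatch on both 5mC arrays, and on C it lay near the median of the mismatches.

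The next rise was at ttgTgcaa, the C4T mismatch, which has no CpG. It had 39.8 and 66.2 on 5mC against 2.19 and 1.83 on C, a difference of 51.0 (adjusted p = 1.2e-08). The 2 values on 5mC were far apart from each other, yet both were well above those on C. tGgcgcaa averaged 37.2 ± 18.3 on 5mC and 5.20 ± 1.27 on C (difference 32.0, adjusted p = 7.0e-06).

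The CEBPB(V285A) calls were spread unevenly over the sides of the site. With the mismatch at positions 1 to 4, which leaves the gcaa half-site intact on the modified strand, 11 of 11 8-mers rose, by 7.08 to 92.2. With the mismatch at positions 5 to 8, 6 of 11 rose, and the differences ran from -0.386 to 28.2. The 5 members that were not called, ttgcCcaa, ttgcTcaa, ttgcgAaa, ttgcgGaa and ttgcgcCa, all belong to this second class. Members with and without the CpG were both called: 4 of the 6 without a CpG rose, against 13 of the 16 mismatches with one.

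Between 5hmC and C, few members were called for CEBPB(V285A). The 6 members without the CpG were all higher on 5hmC, by 0.899 to 14.5 with a median of 4.36. The 16 mismatches with the CpG differed by -2.37 to 1.69, with a median of 0.342. Of the 23 members 2 were called higher and 1 lower, with 7.15% of all 8-mers called in either direction, and the median difference was 0.804. The palindrome averaged 67.3 ± 13.5 on 5hmC and 65.5 ± 0.249 on C (difference 1.81, adjusted p = 0.96), a difference of -7.77 without replicate 1 of the 5hmC arrays.

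The members called higher on 5hmC both lacked the CpG. ttgTgcaa had 16.1 and 17.0 on 5hmC against 2.19 and 1.83 on C (difference 14.5, adjusted p = 0.043). ttgcTcaa had 2.70 and 2.99 on 5hmC against -0.384 and -0.288 on C (difference 3.18, adjusted p = 0.025). ttgcgcCa was the lower one, at 1.81 and 0.041 on 5hmC against 3.10 and 3.50 on C (difference -2.37, adjusted p = 0.020). Leaving out any 1 of the 4 arrays reduced the 3 calls to 0 or 1, and 0 were made with the number in the array names as a random block.

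Set directly against 5mC, 5hmC gave CEBPB(V285A) lower Z-scores at 19 of the 23 members and higher ones at 0 (5.81% of all 8-mers called in either direction), with a median difference of -10.5. The palindrome averaged 67.3 ± 13.5 on 5hmC and 207.7 ± 10.7 on 5mC (difference -140.4, adjusted p = 3.2e-08). Ctgcgcaa fell most among the mismatches, to 0.790 and 3.95 on 5hmC, against 90.3 and 98.6 on 5mC (difference -92.1, adjusted p = 9.6e-16). ttgTgcaa was lower by a difference of -36.4, and tGgcgcaa by one of -32.2. The mismatch that gained most with 5mC thus had about the same mean on 5hmC as on C (2.37 ± 2.23 against 2.28 ± 0.391). With quantile normalization the palindrome's difference was -19.6 and was not called (adjusted p = 0.58).

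For CREB1, 5mC was followed by higher Z-scores at 3 of the 23 members and lower ones at 0, where 0.964% of all 8-mers were called in either direction. With 1 array on 5mC, the p-values assume that this array varies like the others and do not test it. ttCcgcaa was at 6.51 on 5mC against -0.886 ± 0.232 on C (difference 7.39, adjusted p = 3.8e-05). Gtgcgcaa was at 6.98 against 1.77 and 0.813 (difference 5.68, adjusted p = 0.026 in limma's fit), and tAgcgcaa was at 3.93 on 5mC (difference 4.64, adjusted p = 0.011). All 3 have their mismatch at positions 1 to 3.

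The CREB1 palindrome was not called, at 14.0 on 5mC against 1.98 ± 0.120 on C (difference 12.0, adjusted p = 0.96). The standard error of that difference was 15.0 in the fit over all arrays, against an SD of 0.120 between the CREB1 C arrays. In a fit of the arrays with the shared number alone the same difference had an adjusted p of 0.00011, and 9 members were called. On the asinh scale the palindrome was called too (adjusted p = 0.014). Gtgcgcaa was not called without either CREB1 C array (adjusted p = 0.055 without replicate 1 and 0.25 without replicate 2), and tAgcgcaa was not called without replicate 2 (0.11).

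With 5hmC, CREB1 had 1 of 23 members higher and 0 lower, where 9.97% of all 8-mers were called in either direction. On the asinh scale 6 members were called, and with normexp 11. All 23 differences were positive, with a median of 1.07. The called member was again ttCcgcaa, at 2.51 ± 0.104 on 5hmC and -0.886 ± 0.232 on C (difference 3.39, adjusted p = 0.0045), a call that was lost without 5hmC replicate 1 (0.059), without C replicate 2 (0.058) and with the random block (0.088). The palindrome was at 8.85 and 10.4 on 5hmC against 1.90 and 2.06 on C (difference 7.63, adjusted p = 0.75), and it was called on the asinh scale (adjusted p = 0.0030).

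CREB1(A297V) showed no called change at any member. Between 5mC and C, limma called 0 of 23, with 0.0399% of all 8-mers called, 1 member at an unadjusted p under 0.05 and a median difference of 0.902. Between 5hmC and C it called 0 of 23, with 0.255% of all 8-mers called, 2 members at an unadjusted p under 0.05 and a median difference of 0.546. With 8-mer values recomputed from the probe intensities by normexp, 4 members were called on 5mC and 0 on 5hmC. The palindrome averaged 4.16 ± 1.37 on 5mC and 3.12 ± 2.51 on 5hmC (n = 4), against 1.70 ± 0.321 on C. Its spread in the fit again came from all arrays, so differences of this size could hardly be called. The 5hmC difference from C was 1.42, and 0.217 without replicate 4, which carries another number than the C arrays.

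Because a pair of reverse complements carries the modified base on opposite strands of the same site, the 2 Z-scores of a pair compare the strands. Most pairs also differ in their number of modifiable cytosines, and they do so in both directions. For example, ttCcgcaa has 3 and ttgcgGaa 1, whereas ttgGgcaa has 1 and ttgcCcaa 3. In such a pair the strand and the number of cytosines change together, and they cannot be told apart. The difference of the first 8-mer, mismatched at positions 1 to 4, minus the second, mismatched at positions 5 to 8, was tested over all 32230 pairs of 8-mers. On the CEBPB(V285A) 5mC arrays the first was higher in every array for 11 of the 11 pairs, by 5.73 to 70.9 with a median of 14.4. On C it was higher in every array for 7 pairs, and the median was 0.747.

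The change with 5mC was called for 11 of the 11 pairs, all toward the first 8-mer, where 5.25% of all pairs were called in either direction. The largest was the pair of Ctgcgcaa and ttgcgcaG. Their difference was 70.5 and 71.2 on 5mC against 0.532 and 0.961 on C (change 70.1, adjusted p = 5.2e-20). tGgcgcaa minus ttgcgcCa followed with a change of 31.4 (adjusted p = 1.4e-05), and ttgAgcaa minus ttgcTcaa with one of 23.9 (adjusted p = 4.0e-05). The gap between strands was therefore present on 5mC for all pairs, but 0 of them were called on the asinh scale, which compares ratios rather than differences for large values.

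A pair whose order turned round was ttgTgcaa and ttgcAcaa. On 5mC ttgTgcaa was the higher by 9.03 and 27.1, while on C it was the lower, with differences of -4.77 and -4.75. The change was 22.8 (adjusted p = 7.8e-05).

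CREB1 on its 5mC array also had the first 8-mer higher in 11 of 11 pairs, by 0.522 to 7.62 with a median of 4.00. On C the first was higher in every array for 5 pairs, and the median was 0.0295. The count on C asks for more than 1 array to go the same way, so the 2 counts are not alike. Of the 11 changes 3 were called, all toward the first 8-mer (0.729% of all pairs called in either direction). They were at ttCcgcaa (change 7.79, adjusted p = 0.00040), Ctgcgcaa (7.27, adjusted p = 0.011) and Gtgcgcaa (5.22, adjusted p = 0.018). In the CREB1 data Ctgcgcaa minus ttgcgcaG was 7.13 on 5mC and -0.136 ± 0.613 on C. The calls of Ctgcgcaa and Gtgcgcaa were lost without CREB1 C replicate 2, that of Gtgcgcaa also without replicate 1, and 0 pairs were called on the asinh scale. With the arrays of the shared number alone, 5 were called.

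With 5hmC, CREB1 had the first 8-mer higher in both arrays for 9 of 11 pairs, and 2 of the 11 changes against C were called, where 15.5% of all pairs were. These were at Ctgcgcaa (3.47 ± 0.255 on 5hmC against -0.136 ± 0.613 on C, change 3.60, adjusted p = 0.040) and ttCcgcaa (change 2.94, adjusted p = 0.032). Neither was called when any 1 of the 4 arrays was left out. CEBPB(V285A) on 5hmC had 0 of 11 pairs called by limma (3.78% of all pairs called, 1 member pair at an unadjusted p under 0.05, and 1 called by normexp). CREB1(A297V) had 0 of 11 on 5mC (0.031% of all pairs, 0 at an unadjusted p under 0.05, 1 by normexp) and 0 of 11 on 5hmC (0.549% of all pairs, 0 at an unadjusted p under 0.05).

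For CEBPB on 5hmC the pairs went both ways. The second 8-mer was higher in both arrays for 6 of 11 pairs and the first for 2, with a median difference of -0.351. CEBPB on C was not analysed here, so the differences were tested against 0, which compares 2 sets of probes on 5hmC and does not test an effect of 5hmC. In this test 2 pairs were called, both toward the second 8-mer (9.17% of all pairs called in either direction). ttgTgcaa minus ttgcAcaa was -23.5 and -17.2 (mean -20.3, adjusted p = 3.9e-05), and ttTcgcaa minus ttgcgAaa was -21.4 and -15.0 (mean -18.2, adjusted p = 3.4e-08). The higher 8-mers of these pairs are the G5A and C6A mismatches, which keep ttgc on the modified strand. For CEBPB(V285A), another protein, ttgTgcaa minus ttgcAcaa was -4.77 and -4.75 on C, but 0.494 and 7.95 on 5hmC. Its ttTcgcaa minus ttgcgAaa was 0.532 and 2.32 on C, and -1.33 and 2.32 on 5hmC.

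Of these 8-mers, ttgcgAaa also differed between CEBPB and its own mutant. On 5hmC, CEBPB(V285A) had ttgcgAaa at 4.61 and 3.81, against 17.6 and 24.9 for CEBPB (difference -17.1, adjusted p = 5.8e-07). It was the 1 member called of 23 between these proteins, with 2.62% of all 8-mers called in either direction, and 3 were called without CEBPB replicate 1 or without CEBPB(V285A) replicate 2. ttgcAcaa averaged 12.3 for CEBPB(V285A) and 22.6 for CEBPB (difference -10.2) and was not called. The palindrome averaged 67.3 ± 13.5 for CEBPB(V285A) and 35.2 ± 1.01 for CEBPB (difference 32.1, adjusted p = 0.20), and the sign turned with quantile normalization (-19.6).

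CEBPB against CREB1 on 5hmC, within arrays that share a number, had 3 of 23 members higher and 0 lower (3.26% of all 8-mers called in either direction), and 10 were called with those arrays alone. ttgcgAaa was at 17.6 and 24.9 for CEBPB against 0.580 and 0.363 for CREB1 (difference 20.8, adjusted p = 2.1e-08). ttgcAcaa differed by 20.4 (22.6 for CEBPB against 2.17 for CREB1, adjusted p = 9.5e-05) and ttgcTcaa by 5.96 (adjusted p = 0.00017). All 3 are mismatched at positions 5 to 8 and have the ttgc half-site intact. For the palindrome the difference was 25.5 (adjusted p = 0.32), with an adjusted p of 0.032 in the arrays with the shared number alone.

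CEBPB(V285A) was set against CREB1, since both then have alanine at the mutated position. On C, 2 of 23 members were higher in CEBPB(V285A) and 0 lower (1.11% of all 8-mers called in either direction). The palindrome was at 65.7 and 65.3 for CEBPB(V285A) against 1.90 and 2.06 for CREB1 (difference 63.5, adjusted p = 0.0064), and ttgcgcCa averaged 3.30 for CEBPB(V285A) and -0.230 for CREB1 (difference 3.53, adjusted p = 0.0030). The palindrome's call was lost without CREB1 C replicate 1 (0.0995) or replicate 2 (0.057), after quantile normalization (1.0) and with the number in the names as a random block (0.19). It was kept on the asinh scale (adjusted p = 2.1e-07) and with normexp (6.7e-06), where 5 and 11 members were called.

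On 5hmC, 2 members were higher in CEBPB(V285A) than in CREB1 and 0 lower (4.02% of all 8-mers called in either direction). The palindrome was at 76.9 and 57.7 for CEBPB(V285A) against 8.85 and 10.4 for CREB1 (difference 57.7, adjusted p = 0.0067), and ttgcAcaa differed by 10.1 (adjusted p = 0.044). The palindrome was not called without either CREB1 5hmC array (0.081 and 0.078), with the random block (0.15) or after quantile normalization (0.094), but it was called on the asinh scale (0.0011) and with normexp (0.0048), where 8 members were called. In turn, ttgcAcaa was not called without any 1 of 3 of the 4 arrays. The palindrome's values did not overlap between the proteins on either form, which describes 2 arrays per group and is no test.

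CREB1(A297V) was not called higher than CREB1 at the palindrome. As for CREB1 on 5mC, the fit took the palindrome's spread from all arrays. Differences of the size seen for these proteins could therefore hardly be called. The proteins were not compared directly on 5mC. On C, limma called 0 of 23 members, with 1.73% of all 8-mers called and 0 members at an unadjusted p under 0.05. The palindrome averaged 1.70 ± 0.321 for CREB1(A297V) and 1.98 ± 0.120 for CREB1 (difference -0.283, adjusted p = 0.998). On 5hmC, 1 of 23 was lower and 0 higher (8.84% of all 8-mers called in either direction). This was ttTcgcaa, at 2.33, 0.301, -1.41 and 1.34 for CREB1(A297V) against 4.13 and 5.79 for CREB1 (difference -4.32, adjusted p = 0.044). The call was lost without either CREB1 array and without replicate 2 or 3 of CREB1(A297V), whereas 8 members were called on the asinh scale and 13 with normexp. The palindrome was not called (difference -6.49, adjusted p = 0.75), but it was lower on the asinh scale (adjusted p = 0.0021) and with normexp (0.00037).

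Whether the effect of a modified cytosine differed between proteins was tested as an interaction. The 5mC effect was larger in CEBPB(V285A) than in CREB1 at 13 of 23 members and smaller at 0 (1.17% of all 8-mers called in either direction). At the palindrome the 2 effects differed by 130.3 (142.3 in CEBPB(V285A) against 12.0 in CREB1, adjusted p = 0.00030). The call depended on the scale. After quantile normalization the palindrome's interaction was 29.6 (adjusted p = 1.0) and 3 members were called, on the asinh scale it was -0.743 with 0 members called, and by normexp it was -0.325 with 6 called. On C the palindrome averaged 65.5 for CEBPB(V285A) and 1.98 for CREB1.

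The 5hmC effect did not differ between CEBPB(V285A) and CREB1 at any member in limma's test (0 of 23, 2.19% of all 8-mers called, 1 member at an unadjusted p under 0.05), although normexp called 8. Between CREB1(A297V) and CREB1 the 5mC effect was smaller at 1 member, ttCcgcaa, and larger at 0 (difference of effects -6.49, adjusted p = 0.011; 0.19% of all 8-mers called in either direction). The call was lost without CREB1 C replicate 2, CREB1(A297V) 5mC replicate 1 or either CREB1(A297V) C array. The 5hmC effect was called at 0 of 23 (0.766% of all 8-mers called, 2 members at an unadjusted p under 0.05, and 8 called by normexp). These comparisons share the CREB1 arrays, and their values are not independent of one another.

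The 2 8-mers that were set aside differed from each other by strand. For CEBPB(V285A), ttAcgcaa averaged 253.4 on 5mC, 141.4 on 5hmC and 118.4 on C, above the palindrome's mean each time. Its reverse complement ttgcgTaa averaged 33.3, 42.8 and 48.6 on the same forms. CREB1 had 29.5 on 5mC, 46.2 on 5hmC and 11.1 on C at ttAcgcaa, against 3.62, 3.37 and 5.06 at ttgcgTaa.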

How the data were processed

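Protein binding microarrays measured the binding of 4 bZIP DNA-binding domains in 21 arrays of 10 groups. Both kinds of deposited file were used. The deposited matrix holds 1 score per 8-mer and array, a Z-score made by the authors, and how it was made is not given in the sources used here. The deposited scanner tables hold the median intensity of each spot and of its local background for 40330 probes, per the file headers, with no background subtracted; 4 of them list the probes in another order and were matched by probe ID. Groups were taken from the labels.

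The Z-scores were fitted with limma 3.58.1 in R 4.3.3, with 1 coefficient per group, all 21 arrays (11 residual degrees of freedom), eBayes with a mean-variance trend, two-sided, and Benjamini-Hochberg adjustment over the 65126 8-mers with a probe. CREB1 on 5mC has 1 array, assumed to vary like the others. For strands, the difference between an 8-mer and its reverse complement was fitted in the same way over 32230 pairs. Other steps used Python 3.11.15 and pandas 2.3.3. The fit was tested on simulated data with independent noise, for the comparison of CEBPB(V285A) on 5mC and C alone. That test does not cover the group with 1 array or a spread shared by arrays of the same number. The number of arrays limits the precision.

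The alternatives were the asinh of the Z-scores, quantile normalization, values recomputed from the intensities (normexp background correction with offset 50, log2, median over probes), 8-mers with at least 8 probes, the number in the array names as a random block or its arrays alone, a replicate block and each array left out. Dropping 8-mers at 0 in every array was added after seeing the data. Deviations of same-numbered replicates correlated at -0.381 to 0.190 between groups, with both signs. Replicate numbers were not treated as pairs, though this does not settle whether they pair arrays. All 23 members could be named; full statistics went to the palindrome, to up to 3 called members per direction and comparison, and to up to 3 called pairs. The members and lists were chosen with earlier results of these data known.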

Additional observations from a re-analysis of the deposited data

Results flagged for a closer look

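The effect of 5mC on the palindrome was larger in CEBPB(V285A) than in CREB1 by 130.3 Z-score units (142.3 against 12.0, limma's interaction term, adjusted p = 0.00030), and 13 members differed in the same way. CREB1 has 1 array on 5mC, the CEBPB(V285A) forms carry different numbers in their array names, and the result depended on the scale. The palindrome's difference was 29.6 (adjusted p = 1.0) after quantile normalization, with 3 members called, -0.743 on the asinh scale with 0 called, and -0.325 with normexp, with 6 called. Between CREB1(A297V) and CREB1 the effect of 5mC differed at 1 member, ttCcgcaa, by -6.49 (adjusted p = 0.011).

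Among the 4 CREB1(A297V) arrays on 5hmC, 1 of the 23 members had an array far from the others: ttgcgcTa had a Z-score of -0.671 in replicate 2, and 0.499, 0.450 and 0.532 in the other replicates. Chance alone gives such a gap in about 1 in 20 sets of 4 values, so 1 in 23 is no more than that rate.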

How the results depend on the processing

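The count of members higher with 5mC in CEBPB(V285A) stayed within 1.5 times the main count of 18 under every alternative run (17 to 18 with an array left out), and CREB1(A297V) 5hmC against C and CREB1(A297V) against CREB1 on C had 0 throughout. The cause of the following changes was not tested. On the asinh scale the counts were 5 for CREB1 with 5mC, 6 for CREB1 with 5hmC, 9 for CEBPB(V285A) 5hmC against 5mC, 5 for CEBPB(V285A) against CREB1 on C, 8 for CREB1(A297V) against CREB1 on 5hmC, 5 for CEBPB against CREB1, 0 for both called 5mC interactions, and 0 pairs for CREB1 and CEBPB(V285A) with 5mC. With normexp they were 11 for CREB1 with 5mC and with 5hmC, 4 for CREB1(A297V) with 5mC, 11 and 8 for CEBPB(V285A) against CREB1 on C and 5hmC, 13 for CREB1(A297V) against CREB1 on 5hmC, 4 for CEBPB(V285A) against CEBPB, 11 for CEBPB against CREB1, 6 and 4 for the 5mC interactions, 8 for both 5hmC interactions, and 1 pair each for CEBPB(V285A) with 5hmC and CREB1(A297V) with 5mC. After quantile normalization they were 8 and 2 for CREB1 with 5mC and 5hmC, 12 for CEBPB(V285A) 5hmC against 5mC, 0 for CEBPB(V285A) against CREB1 on C, 4 for CEBPB(V285A) against CEBPB, 7 for CEBPB against CREB1, 3 and 4 for the 5mC interactions, and 5 and 0 pairs for CREB1 with 5mC and 5hmC. With the number in the array names as a random block (correlation 0.336), 0 members were called for CREB1 with 5hmC, CEBPB(V285A) 5hmC against C, CEBPB(V285A) against CREB1 on C and 5hmC, and CREB1(A297V) against CREB1 on 5hmC, and 0 pairs for CREB1 with 5hmC. With the arrays of 1 number alone the counts were 9 for CREB1 with 5mC, 10 for CEBPB against CREB1, 5 for the CREB1(A297V) 5mC interaction, and 5 and 4 pairs for CREB1 with 5mC and CEBPB on 5hmC. Requiring at least 8 probes gave 2 for CREB1 with 5hmC and 4 each for CEBPB(V285A) against CREB1 and CEBPB on 5hmC, and dropping the 8-mers at 0, an alternative chosen after seeing the data, gave 2 for CEBPB(V285A) against CEBPB. Replicate numbers were not treated as pairs (correlations of -0.381 to 0.190 between the deviations of arrays with the same replicate number). With them as a replicate block the counts were 2 for CREB1 with 5hmC, 0 for CREB1(A297V) against CREB1 on 5hmC and 3 for CEBPB(V285A) against CEBPB. Leaving out 1 array gave 1 to 2 for CREB1 with 5mC, 0 to 1 for CREB1 with 5hmC, CEBPB(V285A) 5hmC against C, CREB1(A297V) against CREB1 on 5hmC and its 5mC interaction, 0 to 2 for CEBPB(V285A) against CREB1 on C and on 5hmC, 1 to 3 for CEBPB(V285A) against CEBPB, 3 to 4 for CEBPB against CREB1, 16 to 18 for CEBPB(V285A) 5hmC against 5mC, 11 to 14 for its 5mC interaction, and 1 to 2 and 0 pairs for CREB1 with 5mC and 5hmC. The palindrome's difference turned sign for CEBPB(V285A) 5hmC against C with normexp (-0.407) and without an array (-7.77 to 11.4), for CREB1(A297V) 5hmC against C with normexp (-0.0475), for CREB1(A297V) against CREB1 on C (0.00863) and CEBPB(V285A) against CEBPB (-19.6) after quantile normalization, for the CEBPB(V285A) 5mC interaction on the asinh scale (-0.743) and with normexp (-0.325), and for its 5hmC interaction after quantile normalization (18.8) and without an array (-15.4 to 3.75). Most groups have 2 arrays, and CREB1(A297V) had palindrome Z-scores of at most 6.73.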
